A study of Homo sapiens
Mus musculus and Mus musculus and Homo sapiens with 3 samples.

Results

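Cells that carried motor neuron genes and were rich in NEFM, the transcript of the medium neurofilament chain, were set against cells that carried the same genes but held almost no NEFM. Cells were taken when the UMIs (unique molecules counted) of ISL1, MNX1, LHX3 and SLC18A3 summed to at least 2, and were called NEFM-high with at least 10 UMIs of NEFM and NEFM-low with at most 2. The gate gave 1711 cells of the 8683 that passed the cell filter, 1026 NEFM-high and 685 NEFM-low. Human replicates 1 and 2 held 284 and 322 NEFM-high cells beside 153 and 148 NEFM-low cells. Mouse replicates 1 and 2 held 95 and 325 NEFM-high cells beside 170 and 214 NEFM-low cells. A further 53, 59, 57 and 58 gated cells fell between the limits and entered neither side.

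Neurofilaments are the intermediate filaments of neurons: the light chain NEFL, the medium chain NEFM, the heavy chain NEFH, INA and PRPH assemble into the scaffold that fills an axon and sets its calibre. In the developing ventral spinal cord, OLIG2-positive progenitors leave the cell cycle under proneural factors such as NEUROG2, switch on ISL1, LHX3 and MNX1 (homeodomain factors that give motor neuron identity), and then build an axon and the machinery for acetylcholine release, to which SLC18A3, the vesicular acetylcholine transporter, belongs. Neurofilament build-up comes late in that sequence and is known for being strongest in neurons with long axons, motor neurons among them.

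The cells came from pluripotent lines differentiated towards motor neurons in vitro as embryoid bodies, which are floating cell aggregates, and were read cell by cell, in droplets, from the 3' ends of their transcripts. Human replicate 1 was the line NCRM1, human replicate 2 the line RUES1 (the labels give human iPS as its cell type), and both mouse replicates were embryonic stem cells of C57BL/6 background. All lines had received a lentivirus with a CAGGS-driven GFP and a short barcode before differentiation, and GFP-positive cells were sorted. Human replicate 1 and mouse replicate 1 were 1 mixed library that was deposited by species, and the replicate 2 parts were libraries of their own. No cell carried a day of differentiation in the files, so the sides may also differ in day. Where nothing states separate cultures, each p-value measures only the spread between these library parts, and in the human parts that spread also holds a difference of line.

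Total depth was 28577630 to 83969715 UMIs per library part. The 60 barcodes that both files of the mixed library shared were dropped. The sums that were compared ranged from 1598216 to 8753816 UMIs. Median UMIs per cell in the NEFM-low and NEFM-high sides were 10839 and 9109 in human replicate 1, 16561 and 16356 in human replicate 2, 14083 and 16946 in mouse replicate 1, and 22187 and 25860 in mouse replicate 2. The mouse NEFM-high cells were thus deeper than the NEFM-low cells and the human ones were not. The median mitochondrial share of UMIs was 3.37%, 5.62%, 2.28% and 1.35% in the NEFM-low and 2.25%, 4.54%, 2.00% and 1.52% in the NEFM-high sides of the 4 parts. Levels below are UMIs of a gene per 1000000 UMIs (CPM) of the 15472 gene symbols found in all 4 files, summed over the cells of a side. Values are listed with replicate 1 before replicate 2 and NEFM-low before NEFM-high cells, and lists of 4 run through the human and then the mouse parts.

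Values of the 5 genes that chose the cells are a description and were not tested. NEFM stood at 19.6 and 26.1 CPM in NEFM-low and 3920 and 5260 CPM in NEFM-high human cells, and in mouse cells at 28.8 and 24.5 CPM against 2272 and 2801 CPM. SLC18A3 was also higher on the NEFM-high side in every part, at 7.57 and 12.2 CPM in NEFM-low and 179 and 75.2 CPM in NEFM-high human cells, and in mouse cells at 64.9 and 36.2 CPM against 308 and 315 CPM. LHX3, an early motor neuron factor that is later kept only in some motor columns, was at 239 and 162 CPM in NEFM-low and 100.3 and 67.1 CPM in NEFM-high human cells, and in mouse cells at 179 and 111 CPM against 95.8 and 284 CPM. It was thus lower in NEFM-high cells of 3 parts and higher in mouse replicate 2. ISL1 and MNX1 were higher on the NEFM-high side except for ISL1 in mouse replicate 2, which measured 351 CPM on the NEFM-low and 307 CPM on the NEFM-high side. Cells just inside and just outside the NEFM limits graded into each other: gated cells with 1 to 2, 3 to 4, 8 to 9 and 10 to 11 UMIs of NEFM held STMN2 at 757, 704, 2347 and 2138 CPM in human replicate 1, and at 238, 748, 1581 and 1644 CPM in mouse replicate 2.

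The NEFM-high side carried the marker genes named for it. At least 1 UMI of STMN2, a microtubule-binding protein of growing axons, was found in 97.5%, 99.1%, 94.7% and 98.8% of NEFM-high cells in the 4 parts. In the NEFM-low cells that share was 33.3% (25.9 to 41.4), 39.9% (31.9 to 48.2), 39.4% (32.0 to 47.2) and 46.7% (39.9 to 53.7) (95% exact binomial intervals, which cover counting error only). In SOX2-positive cells with no UMI of the gate genes, which are progenitors by these genes and should lack STMN2, it was 8.64%, 12.8%, 10.4% and 14.2%, at median depths of 12761, 18686, 22323 and 35316 UMIs per cell. NEFL was listed in 3 of the 4 files and there climbed with NEFM, between gated cells with at most 2 and with 50 or more UMIs of NEFM from 55.9 to 4342 CPM in human replicate 2, from 41.1 to 3981 CPM in mouse replicate 1 and from 23.3 to 5101 CPM in mouse replicate 2. NEFL was not analysed in human replicate 1, and since it is a marker of the side these values are a description.

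The NEFM-low side held many cells with progenitor transcripts. A UMI of SOX2, a transcription factor of neural progenitors, was present in 73.2% (65.5 to 80.0), 87.2% (80.7 to 92.1), 56.5% (48.7 to 64.0) and 62.6% (55.8 to 69.1) of NEFM-low cells in the 4 parts, against 14.8%, 15.8%, 15.8% and 6.77% of NEFM-high cells. With every cell thinned to 5000 UMIs these shares were 59.2%, 67.4%, 32.4% and 30.2% against 7.31%, 7.57%, 9.47% and 1.86%. Most NEFM-low cells also held a neuronal transcript: ELAVL3, an RNA-binding protein of all neurons, had a UMI in 83.7%, 74.3%, 94.1% and 89.3% of them. In the SOX2-positive cells outside the gate that share was 14.5%, 20.1%, 45.8% and 31.2%. The low side thus carried progenitor and neuronal transcripts together. The name nascent motor neurons does not cover the SOX2 values, so both sides are called by their NEFM level. LHX3 was the only gate gene with a UMI in 66 of 153, 47 of 148, 40 of 170 and 26 of 214 NEFM-low cells of the 4 parts.

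Between the sides, 2176 of 10255 tested symbols differed in human cells (21.2%), 1129 of them higher (11%) and 1047 lower (10.2%) in NEFM-high cells. In mouse cells 3572 differed (34.8%), with 1835 higher (17.9%) and 1737 lower (16.9%). The test was edgeR's quasi-likelihood test on the summed counts with the library part as a block, at a Benjamini-Hochberg adjusted p of 0.05 over all symbols. Without the block, which gives each part a level of its own, 86 human and 344 mouse symbols passed. Without human replicate 2 the human count was 802, and without mouse replicate 2 the mouse count was 1004. With equal numbers of cells of like depth on both sides, 2172 human and 3673 mouse symbols passed. The 1469 symbols called in both species made up 67.5% of the human and 41.1% of the mouse calls, and 1417 of them had the same direction. The sides were chosen on NEFM, so a gene that goes with NEFM from cell to cell had to differ between them, and the values describe what went with NEFM.

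**Figure D1:**
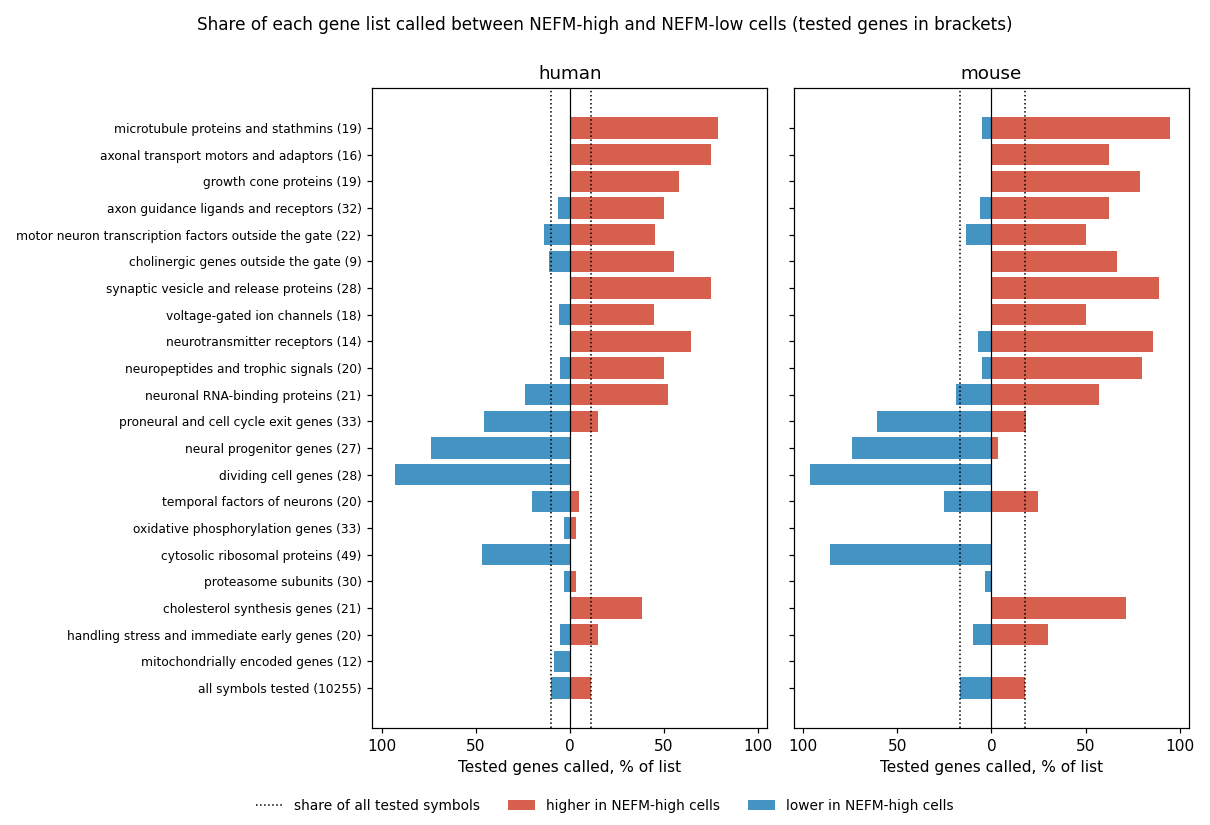
Share of each gene list that was called higher (red, to the right) or lower (blue, to the left) in NEFM-high than in NEFM-low cells, in human (left panel) and mouse (right panel), as a percent of the tested genes given in brackets; dotted lines mark the share of all tested symbols, 11% and 10.2% in human and 17.9% and 16.9% in mouse. Lists of the axon and the synapse extend to the right in both species, and progenitor, dividing-cell and ribosomal lists to the left.

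Of the other intermediate filaments tested, INA and PRPH were higher on the NEFM-high side in both species and VIM was lower. NES, the progenitor filament nestin, was lower in mouse (log2 -1.81) and not called in human (log2 -0.18, adjusted p = 0.515). INA, alpha-internexin, stood at 36.6 and 62.7 CPM in NEFM-low and 400.4 and 597 CPM in NEFM-high human cells, and in mouse cells at 298 and 293 CPM against 1479 and 2314 CPM. All NEFM-high values lay above all NEFM-low values, and the change was log2 3.24 (SE 0.21, adjusted p = 1.93e-05) in human and log2 2.48 (SE 0.19, adjusted p = 2.34e-05) in mouse. PRPH, peripherin, the chain of neurons that send axons out of the cord, was close to undetected in NEFM-low cells. Its level was 1.26 and 0.841 CPM in NEFM-low and 31.9 and 157 CPM in NEFM-high human cells, and in mouse cells at 1.27 and 2.45 CPM against 63.6 and 355 CPM. The change was log2 6.57 (SE 0.49, adjusted p = 3.40e-05) in human and log2 6.66 (SE 0.39, adjusted p = 8.65e-06) in mouse. A PRPH UMI was found in 8.10%, 24.8%, 26.3% and 59.4% of NEFM-high cells in the 4 parts, or 6.92%, 18.4%, 13.7% and 40.2% at 5000 UMIs per cell, and in 1.16%, 2.18%, 0.925% and 3.15% of the SOX2-positive cells outside the gate. Most NEFM-high cells of 3 parts thus showed no PRPH UMI. NEFH, the heavy chain of mature axons, was at 6.31 and 15.1 CPM in NEFM-low and 6.29 and 21.4 CPM in NEFM-high human cells, and in mouse cells at 1.70 and 1.84 CPM against 0 and 9.50 CPM. NEFH was not called in either species (adjusted p = 0.791 and 0.155). VIM, another filament of progenitors, was lower in NEFM-high cells of both species. It went from 3595 and 4647 CPM to 1570 and 1527 CPM in human, and in mouse from 943 and 922 CPM to 686 and 699.8 CPM. The mouse call of VIM had an adjusted p of 0.0234 and was lost without human replicate 2, without mouse replicate 1 and without mouse replicate 2 (0.0642, 0.225 and 0.18).

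Microtubule genes were mostly higher on the NEFM-high side. Of 19 tested tubulins, microtubule-associated proteins and stathmins, 15 were higher in human NEFM-high cells and none lower, and 18 were higher and 1 lower in mouse, with median log2 changes of 1.49 and 2.20 beside medians of 0.00 and -0.04 over all symbols. Without human replicate 2 the human count was 9. DCX, doublecortin, which bundles microtubules in migrating and growing neurons, was at 43.5 and 40.4 CPM in NEFM-low and 640.3 and 737 CPM in NEFM-high human cells, and in mouse cells at 33.9 and 36.4 CPM against 204 and 488 CPM. MAPT, tau, was at 9.47 and 7.15 CPM in NEFM-low and 85.3 and 159 CPM in NEFM-high human cells, and in mouse cells at 15.3 and 8.38 CPM against 169 and 649 CPM. The NEFM-high values of both genes were above every NEFM-low value, with log2 changes of 3.93 (SE 0.27) and 3.05 (SE 0.26) for DCX and 3.82 (SE 0.57) and 4.86 (SE 0.53) for MAPT in human and mouse. STMN2 rose as well, from 219.6 and 184 CPM to 3642 and 4450 CPM in human, and in mouse from 231 and 151 CPM to 1704 and 3298 CPM. The 1 gene that was lower in mouse was TUBA1B, an alpha-tubulin of all cells (log2 -0.79). STMN4, TUBB2A and TUBB4A were also higher in both species (log2 5.47, 2.66 and 2.15 in human and 4.07, 3.68 and 4.34 in mouse). TUBB3, the neuronal beta-tubulin, had no UMI in human replicate 1, where the file counted none for it, so its human change of log2 1.28 rests on human replicate 2 alone.

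**Figure D2:**
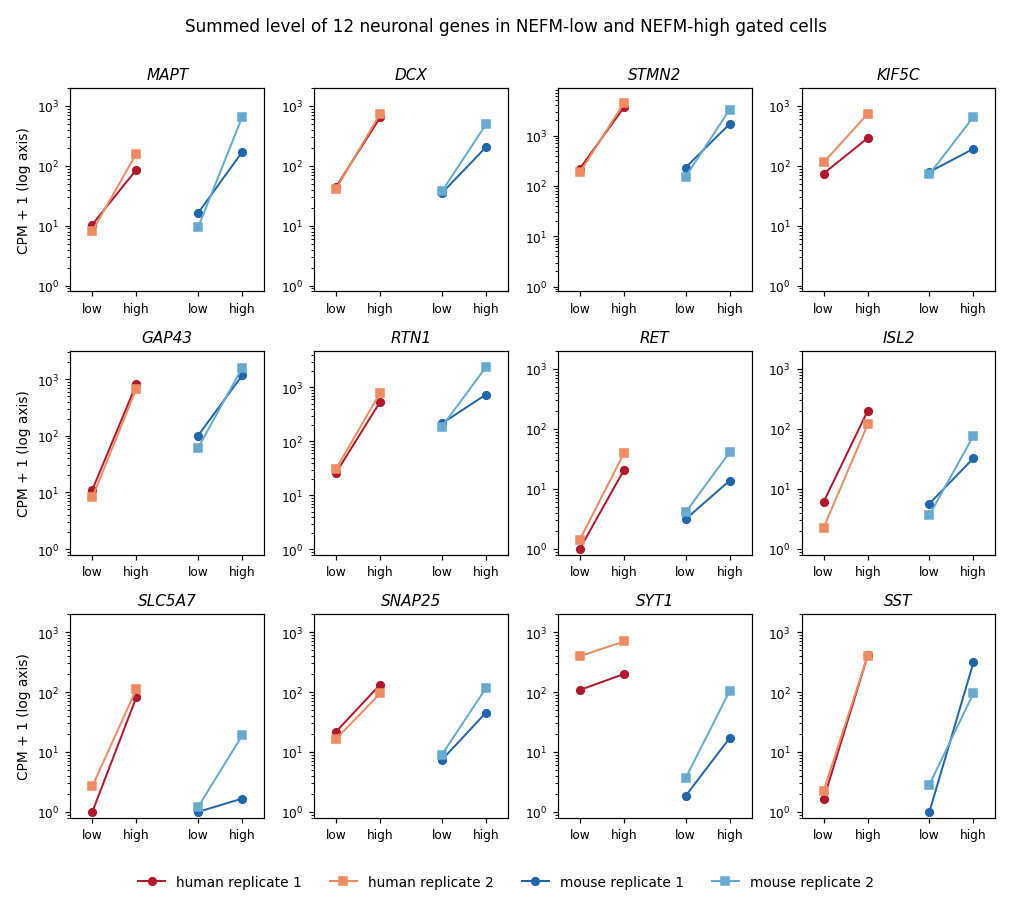
Level of 12 neuronal genes (CPM plus 1, log axis) summed over NEFM-low and NEFM-high gated cells, with a line joining the sides of each library part (circles replicate 1, squares replicate 2, reds human, blues mouse). Every line rises; GAP43 and RTN1 start about an order lower in human than in mouse NEFM-low cells, while SYT1 starts far higher in human.

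Motors that carry cargo along the axon followed. Kinesins, dyneins and adaptors were higher for 12 of 16 tested genes in human and 10 of 16 in mouse, with none lower, and 8 were higher in both. The counts were 5 in human without human replicate 2 and 6 in mouse without mouse replicate 2. KIF5A, the neuron-restricted heavy chain of conventional kinesin, was at 2.52 and 11.8 CPM in NEFM-low and 24.4 and 147 CPM in NEFM-high human cells, and in mouse cells at 2.97 and 5.31 CPM against 35.5 and 122 CPM. Its NEFM-high values did not overlap the NEFM-low ones, and the changes were log2 3.51 (SE 0.30, adjusted p = 6.49e-05) in human and log2 4.06 (SE 0.29, adjusted p = 1.98e-05) in mouse. KIF5C, a second neuronal heavy chain, rose by log2 2.26 and 2.13, whereas KIF5B, the heavy chain that all cells use, had changes of -0.093 (adjusted p = 0.737) and -0.26 (adjusted p = 0.233) and was called in neither species. DYNLL1, a dynein light chain, had changes of -0.18 (adjusted p = 0.496) and 0.0084 (adjusted p = 0.982).

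Proteins of the growth cone, the moving tip of an axon, were higher for 11 of 19 tested genes in human and 15 of 19 in mouse, and none was lower. GAP43, the best known of them, was at 10.1 and 7.15 CPM in NEFM-low and 810.2 and 679.6 CPM in NEFM-high human cells, and in mouse cells at 99.7 and 60.1 CPM against 1154 and 1566 CPM. The groups did not overlap, and the change was log2 6.34 (SE 0.33, adjusted p = 5.22e-06) in human and log2 3.96 (SE 0.26, adjusted p = 1.24e-05) in mouse. The gene lies at chr3:115623510-115721483 in the human build hg38 and as Gap43 at chr16:42248442-42340651 in the mouse build mm10. RTN1, a reticulon of neuronal endoplasmic reticulum, was at 25.2 and 29.9 CPM in NEFM-low and 541 and 795 CPM in NEFM-high human cells, and in mouse cells at 213 and 185 CPM against 735 and 2368 CPM. The adhesion molecules CNTN2, L1CAM and NCAM1, on which axons grow in bundles, were each higher in both species, with human log2 changes of 3.34, 2.91 and 1.64 and mouse changes of 1.98, 5.03 and 2.35. MARCKS, an actin-binding protein, had log2 changes of -0.028 and -0.085 (adjusted p = 0.929 and 0.728).

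Guidance ligands and receptors were called higher more often than lower. Of 32 tested, 16 were higher and 2 lower in human NEFM-high cells, and 20 were higher and 2 lower in mouse, the lower ones a smaller share than the 10.2% and 16.9% of all symbols. The higher counts were 9 in human without human replicate 2 and 9 in mouse without mouse replicate 2, in fits where the part left alone is taken to vary like the other parts. SLIT2, a repellent that motor axons themselves secrete, was at 4.42 and 23.1 CPM in NEFM-low and 168 and 352 CPM in NEFM-high human cells, and in mouse cells at 33.5 and 89.3 CPM against 368 and 832 CPM. SLIT2 had log2 changes of 4.22 (SE 0.26) and 3.15 (SE 0.22). RET, the receptor through which motor axons sense GDNF, was at 0 and 0.421 CPM in NEFM-low and 19.7 and 38.1 CPM in NEFM-high human cells, and in mouse cells at 2.12 and 3.07 CPM against 12.7 and 39.8 CPM. It was higher in every NEFM-high sum than in any NEFM-low sum. The human NEFM-low sums held 1 UMI of RET in all, so the ratio of NEFM-high to NEFM-low was 125 with a 95% counting interval of 22.3 to 4974. SEMA6D was also higher in both species (log2 3.30 and 3.78), and CXCR4, a chemokine receptor of ventral motor neurons, was higher in human, from 52.4 and 50.5 CPM to 587 and 166 CPM, while its mouse change of 1.06 had an adjusted p of 0.0507.

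Motor neuron transcription factors outside the gate were also called higher more often than lower. In human 10 of 22 tested were higher and 3 lower, and in mouse 11 were higher and 3 lower, beside 10.2% and 16.9% of all symbols lower. ISL2, a homeodomain factor switched on after the last division, was at 5.05 and 1.26 CPM in NEFM-low and 199.8 and 118 CPM in NEFM-high human cells, and in mouse cells at 4.67 and 2.66 CPM against 31.5 and 76.0 CPM. Its values on the sides did not overlap. The ISL2 change was log2 5.63 (SE 0.43, adjusted p = 3.56e-05) in human and log2 3.85 (SE 0.41, adjusted p = 1.18e-04) in mouse. PBX3, a cofactor of HOX proteins, and ONECUT2, a factor of early-born neurons, were higher in both species (human log2 2.83 and 1.73, mouse log2 1.31 and 2.38). LHX4, which acts with LHX3 in new motor neurons, was higher as well (log2 1.98 and 1.65). By the same edgeR test its human change was log2 0.29 (adjusted p = 0.767) among cells with no SOX2 UMI and at least 1 UMI of ELAVL3. The lower ones included EBF2, a factor of early neuronal differentiation (human -1.43, mouse -2.004), whose human call was lost without human replicate 2 (adjusted p = 0.222), and NKX6-1, a factor of the progenitor domain and of some motor neurons (human -1.54, mouse -0.65), whose mouse call was lost without mouse replicate 2 (adjusted p = 0.629). The count of lower genes in mouse was 1 without mouse replicate 2.

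Cholinergic genes outside the gate were higher for 5 of 9 tested in human, with 1 lower, and 6 of 9 in mouse. The counts were 3 in human without human replicate 2 and 3 in mouse without mouse replicate 2. SLC5A7, the choline transporter that feeds acetylcholine synthesis, was at 0 and 1.68 CPM in NEFM-low and 81.0 and 111 CPM in NEFM-high human cells, and in mouse cells at 0 and 0.204 CPM against 0.67 and 17.9 CPM. It was near 0 in all NEFM-low sums and in the NEFM-high sum of mouse replicate 1, and the change was log2 6.53 (SE 0.44, adjusted p = 2.09e-05) in human and log2 5.95 (SE 0.72, adjusted p = 2.32e-04) in mouse. The mouse call was lost without mouse replicate 2 (adjusted p = 0.468). SLC10A4, a vesicle protein of cholinergic terminals, was at 0 and 0.421 CPM in NEFM-low and 30.7 and 21.0 CPM in NEFM-high human cells, and in mouse cells at 22.9 and 11.03 CPM against 256 and 104 CPM. It was higher on the NEFM-high side in every part. CHAT, the enzyme that makes acetylcholine, stayed low in human cells, from 0 and 0.841 CPM to 0.787 and 4.87 CPM. Its mouse level went from 8.06 and 9.20 CPM to 27.5 and 53.3 CPM (log2 2.06, adjusted p = 6.65e-04), with adjusted p = 0.102 without mouse replicate 2. The human CHAT change had an adjusted p of 0.0457, and was not called without human replicate 1, without human replicate 2 or without mouse replicate 2 (0.0578, 0.581 and 0.0523). It rested on 2 and 25 UMIs, a ratio of 6.82 (95% counting interval 1.70 to 59.4).

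Synaptic vesicle and release proteins were higher for 21 of 28 tested genes in human and 25 of 28 in mouse, with none lower, and 20 were higher in both. Median log2 changes were 1.78 and 2.71. The counts were 13 in human without human replicate 2 and 9 in mouse without mouse replicate 2. SNAP25, a SNARE protein of vesicle fusion, was at 20.8 and 15.6 CPM in NEFM-low and 132 and 93.6 CPM in NEFM-high human cells, and in mouse cells at 6.36 and 7.97 CPM against 44.2 and 115 CPM. No NEFM-low value reached a NEFM-high one, and the change was log2 2.51 (SE 0.25, adjusted p = 1.21e-04) in human and log2 3.30 (SE 0.27, adjusted p = 3.43e-05) in mouse. RAB3A, a GTPase of vesicles, was higher by log2 2.31 and 3.22, and SNCG, gamma-synuclein, by 2.45 and 6.32.

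Genes of excitability were fewer above the count filter. Of all symbols, 11% were higher in human and 17.9% in mouse. DESeq2's Wald test called 4 of 18 channels and 4 of 14 receptors higher in human. Without human replicate 2, 19 channels and 16 receptors were tested. Voltage-gated channels were higher for 8 of 18 tested in human (1 lower) and 9 of 18 in mouse, and the counts were 1 in human without human replicate 2 and 4 in mouse without mouse replicate 2. SCN3A, a sodium channel of embryonic neurons, was at 5.05 and 5.05 CPM in NEFM-low and 8.65 and 41.9 CPM in NEFM-high human cells, and in mouse cells at 0.424 and 1.23 CPM against 13.4 and 68.9 CPM. Its human call was lost without human replicate 2, where the change was log2 0.56. The mouse level of SCN3A was higher on the NEFM-high side of both parts. With 1 mouse part left, the fit has no mouse replicate and takes that part to vary like the others. Neurotransmitter receptors were higher for 9 of 14 tested in human and 12 of 14 in mouse, and for 4 and 3 without human replicate 2 and without mouse replicate 2. GRIA2, the subunit that limits calcium entry through AMPA receptors, went from 1.26 and 5.05 CPM to 7.47 and 89.3 CPM in human, and in mouse from 2.54 and 2.04 CPM to 16.7 and 81.3 CPM. Both replicate 2 parts reached higher levels than the replicate 1 parts, and the human GRIA2 call was lost without human replicate 2 (adjusted p = 0.113).

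Secreted peptides included genes with few UMIs on the NEFM-low side. SST, somatostatin, was at 0.631 and 1.26 CPM in NEFM-low and 406 and 403 CPM in NEFM-high human cells, and in mouse cells at 0 and 1.84 CPM against 312 and 94.7 CPM. It was the gene with the largest human change among called genes with at least 50 CPM on the higher side of both parts, at log2 8.51 (SE 0.58, adjusted p = 2.09e-05), and in mouse it changed by log2 6.81 (SE 0.52, adjusted p = 2.13e-05). The ratio over both parts was 399.9 (95% counting interval 156 to 1469) in human and 104 (54.5 to 228) in mouse. Over the list of peptides and trophic signals, 10 of 20 tested genes were higher and 1 lower in human, and 16 were higher and 1 lower in mouse. NRG1, the neuregulin that motor axons supply to muscle and Schwann cells, was at 36.6 and 20.6 CPM in NEFM-low and 219 and 157 CPM in NEFM-high human cells, and in mouse cells at 2.54 and 6.95 CPM against 49.6 and 120.3 CPM. PCSK1N, which inhibits a peptide-processing protease, and SCG2, a secretogranin of dense-core vesicles, were also higher in both species (human log2 3.91 and 4.57, mouse log2 5.10 and 5.59).

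Splicing and stability factors were called in both directions. Of 21 tested neuronal RNA-binding proteins, 11 were higher and 5 lower in human and 12 were higher and 4 lower in mouse, beside 10.2% and 16.9% of all symbols lower. These were 7 and 3 in human without human replicate 2 and 6 and 1 in mouse without mouse replicate 2. Without mouse replicate 1 the lower mouse count was 2. RBFOX1, a splicing factor of maturing neurons, was at 3.16 and 4.63 CPM in NEFM-low and 39.3 and 74.3 CPM in NEFM-high human cells, and in mouse cells at 2.97 and 1.02 CPM against 24.8 and 111 CPM. It rose by log2 3.79 in human and 5.17 in mouse, and ELAVL2, which stabilises neuronal messages, by 2.10 and 1.95. PTBP1, a repressor of neuronal exons that progenitors express, fell (log2 -1.07 in human and -1.83 in mouse), and MSI2, a progenitor RNA-binding protein, fell (log2 -1.196 in human and -0.97 in mouse). The mouse MSI2 call was lost without mouse replicate 2 (adjusted p = 0.0547).

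Among all genes, the rule of largest change named, in human NEFM-high cells, SST, TTC9B, SLC5A7, GAP43, PPP2R2B, ISL2, DLC1, STMN4, ECEL1 and GNG3 as higher, and CCNB2, TOP2A, EMP2, NEUROG1, HES5, BIRC5, UBE2C, CENPF, OLIG2 and SPARC as lower. In mouse it named RESP18, SST, PRPH, ECEL1, SNCG, UTS2B, PCSK1N, MAPT, TUBB4A and STMN4 as higher and HES5, OLIG1, CCND1, OLIG2, NEUROG1, ID1, RRM2, TOP2A, NOTCH1 and PBK as lower. ECEL1, a membrane endopeptidase needed for motor axon branching, stood on both lists and was at 6.94 and 7.99 CPM in NEFM-low and 335 and 317 CPM in NEFM-high human cells, and in mouse cells at 1.27 and 1.84 CPM against 111 and 219 CPM. All NEFM-high values of ECEL1 were above 100 CPM and all NEFM-low values under 10 CPM. RESP18, an endocrine secretory protein, had no UMI in either human part and rose from 2.54 and 0.204 CPM to 72.3 and 218 CPM in mouse. UTS2B, urotensin 2B, rose from 2.12 and 2.25 CPM to 115 and 102 CPM in mouse and held 7 UMIs in all human sums. TTC9B, a tetratricopeptide protein, had 2 UMIs in the human NEFM-low sums and a ratio of 152 (95% counting interval 42.0 to 1261).

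Genes of the progenitor state were lower in NEFM-high cells. Of 27 tested, 20 were lower and none higher in human, and 20 were lower and 1 higher in mouse, with 17 lower in both. The lower counts were 11 in human without human replicate 2 and 13 in mouse without mouse replicate 2. SOX2 was at 249 and 359.7 CPM in NEFM-low and 34.2 and 30.5 CPM in NEFM-high human cells, and in mouse cells at 101 and 103 CPM against 16.7 and 11.6 CPM. OLIG2, the factor of motor neuron progenitors, was at 491 and 403 CPM in NEFM-low and 44.8 and 37.9 CPM in NEFM-high human cells, and in mouse cells at 318 and 324 CPM against 26.1 and 17.6 CPM. For both genes every NEFM-low value was above every NEFM-high value, and OLIG2 changed by log2 -3.54 (SE 0.21, adjusted p = 9.47e-06) in human and log2 -4.13 (SE 0.22, adjusted p = 7.11e-06) in mouse. HES5, a Notch effector, was at 61.8 and 1174 CPM in NEFM-low and 15.7 and 51.0 CPM in NEFM-high human cells, and in mouse cells at 116 and 794 CPM against 6.70 and 38.5 CPM. The replicate 2 parts were far above the replicate 1 parts on the NEFM-low side. NOTCH1 fell (log2 -2.74 in human and -3.55 in mouse). The 1 progenitor-list gene that was higher in mouse was NKX6-2 (from 31.8 and 7.15 CPM to 53.6 and 111 CPM), a call that was lost without mouse replicate 2 (adjusted p = 0.385).

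Dividing-cell genes were lower for 26 of 28 tested in human and 27 of 28 in mouse, with median log2 changes of -2.83 and -2.70, and the human count was 16 without human replicate 2. TOP2A, the topoisomerase of dividing cells, was at 94.7 and 303 CPM in NEFM-low and 18.1 and 11.01 CPM in NEFM-high human cells, and in mouse cells at 221 and 329 CPM against 16.1 and 36.1 CPM. MKI67, a marker of cycling nuclei, was at 29.0 and 145 CPM in NEFM-low and 5.51 and 5.50 CPM in NEFM-high human cells, and in mouse cells at 41.1 and 129 CPM against 10.0 and 22.4 CPM. Both were low on the NEFM-high side of all parts, and the NEFM-low levels were higher in the replicate 2 parts than in the replicate 1 parts of the same species. A UMI of MKI67 was found in 7.19%, 25.7%, 22.4% and 57.5% of NEFM-low cells and in 1.41%, 4.04%, 5.26% and 20% of NEFM-high cells, and at 5000 UMIs per cell in 4.76%, 19.4%, 11.2% and 30.2% against 0%, 2.63%, 2.11% and 5.26%. The 0% is 0 of 260 thinned cells, which by counting error alone allows up to 1.15% of cells with a UMI at that depth, and 4 of 284 cells held one at full depth.

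**Figure D3:**
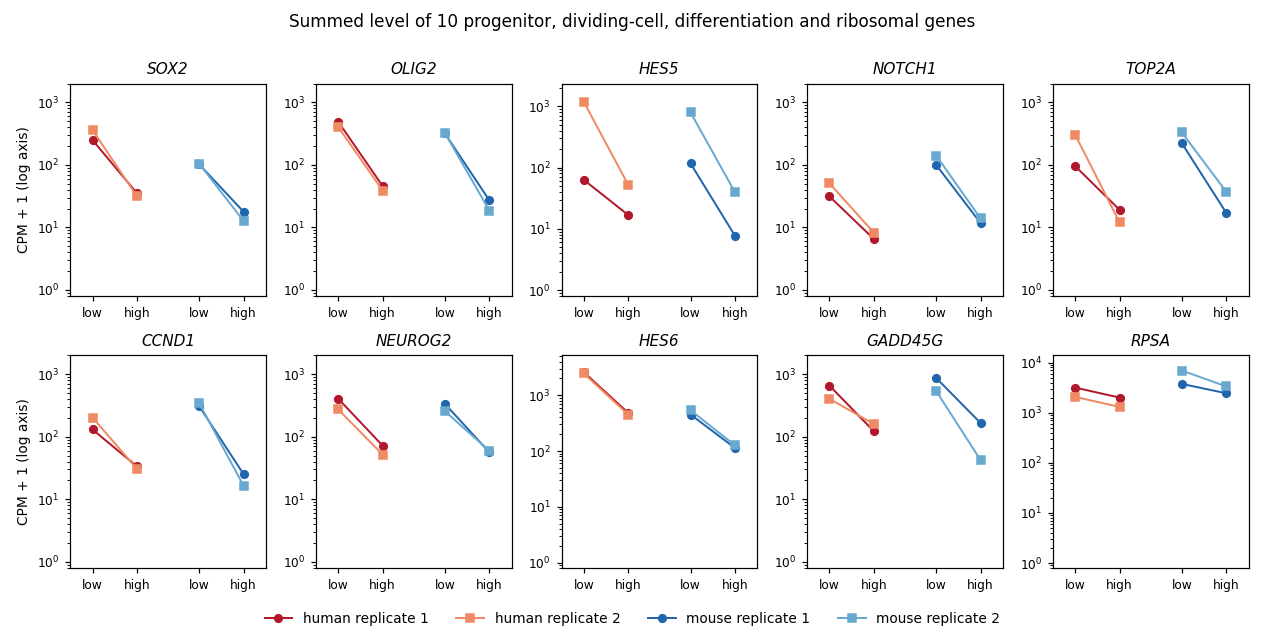
Level of 10 genes of progenitors, division, early differentiation and the ribosome (CPM plus 1, log axis) in NEFM-low and NEFM-high gated cells, drawn as for the neuronal genes (circles replicate 1, squares replicate 2, reds human, blues mouse). Every line falls; HES5 falls from very different starting levels, 61.8 and 1174 CPM in the human parts.

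Genes of the step between progenitor and neuron were mostly lower too. In the list of proneural and cell cycle exit genes, 15 of 33 tested were lower and 5 higher in human. In mouse 20 were lower and 6 higher, with 14 lower in both species. Of all symbols, 10.2% were lower and 11% higher in human, and 16.9% and 17.9% in mouse, so the higher counts were close to the share of all symbols. The higher counts were 1 in human without human replicate 2 and 2 in mouse without mouse replicate 2. NEUROG2, the proneural factor that drives motor neuron formation, was at 406 and 273 CPM in NEFM-low and 71.2 and 51.0 CPM in NEFM-high human cells, and in mouse cells at 336 and 255 CPM against 55.6 and 58.9 CPM. GADD45G, a gene of cell cycle exit, was at 658 and 405 CPM in NEFM-low and 121 and 158 CPM in NEFM-high human cells, and in mouse cells at 872 and 538 CPM against 165 and 41.3 CPM. Values of both on the sides did not overlap. HES6, an antagonist of HES repressors, fell (log2 -2.56 in human and -2.23 in mouse), and the Notch ligand DLL1 fell (log2 -1.997 in human and -3.02 in mouse). SOX4 and SOX11, factors that open neuronal genes, were not lower: SOX4 had log2 changes of 0.24 and 0.24 (adjusted p = 0.436 and 0.367), and SOX11 had 0.60 in human (adjusted p = 0.0389, and 0.0605 without human replicate 1 or 0.638 without human replicate 2) and 0.43 in mouse (adjusted p = 0.0893).

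Housekeeping groups behaved differently from each other. Ribosomal protein genes were lower for 23 of 49 tested in human and 42 of 49 in mouse, with none higher and median log2 changes of -0.63 and -0.71. Their summed level was 227661, 164859, 218641 and 172427 CPM in the NEFM-low sides of the 4 parts, and 158104, 117551, 171895 and 100469 CPM in the NEFM-high sides, lower in each part. The number of calls depended on the libraries: by the same edgeR test it was 0 in human without human replicate 1 and 0 without human replicate 2 (5 and 10 at an unadjusted p under 0.05) and 35 without mouse replicate 2. In mouse it was 18 without human replicate 2, 20 without mouse replicate 1 and 1 without mouse replicate 2. RPSA, a ribosomal protein of the small subunit, was at 3168 and 2061 CPM in NEFM-low and 1999 and 1303 CPM in NEFM-high human cells, and in mouse cells at 3748 and 6931 CPM against 2438 and 3343 CPM. Its human call was lost without human replicate 1 or 2 (adjusted p = 0.229 and 0.28), and its mouse call without mouse replicate 2 (0.0729).

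Oxidative phosphorylation genes were called for 1 higher and 1 lower of 33 in human and none in mouse (1 above and 1 below 0 at an unadjusted p under 0.05), and proteasome subunits for 1 higher and 1 lower of 30 in human and 1 lower in mouse, all under the shares over all symbols. Cholesterol synthesis genes were higher for 8 of 21 in human and 15 of 21 in mouse, with none lower. These counts were 4 in human without human replicate 2 and 4 in mouse without mouse replicate 2. HMGCS1, which starts the mevalonate pathway, was at 194 and 200.2 CPM in NEFM-low and 372 and 329 CPM in NEFM-high human cells, and in mouse cells at 311 and 160.4 CPM against 639 and 659 CPM. SQLE, squalene epoxidase, rose by log2 0.89 and 1.05. The human HMGCS1 call was lost without human replicate 1 or human replicate 2 (adjusted p = 0.1 and 0.209), and the human SQLE call without human replicate 2 (0.136).

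Factors that mark the age of neurons and progenitors were called in both directions: of 20 tested, 1 was higher and 4 lower in human, and 5 were higher and 5 lower in mouse, beside 11% higher and 10.2% lower of all symbols in human and 17.9% and 16.9% in mouse. HMGA2 and IGF2BP1, genes of early tissue that decline with developmental age, were lower in both species (human log2 -1.41 and -0.94, mouse log2 -2.58 and -1.34). NFIA, a factor that comes on late in the cord, was higher in both (log2 2.29 and 1.68). Without mouse replicate 2 the number higher in mouse was 2. Genes of handling stress were called higher for 3 and lower for 1 of 20 in human and higher for 6 and lower for 2 in mouse, with JUN and DDIT3 higher in both. The mouse JUN call was lost without mouse replicate 2 (adjusted p = 0.0655), and DDIT3 was lost in human without human replicate 2 (0.212) and in mouse without mouse replicate 2 (0.119). The higher counts were 5 in human without mouse replicate 1, 7 in human without mouse replicate 2 and 2 in mouse without mouse replicate 2. Mitochondrially encoded transcripts, with 1 of 12 lower in human and none called in mouse (0 at an unadjusted p under 0.05), summed to 32715, 25326, 21718 and 4744 CPM in the NEFM-low and 27363, 20898, 19628 and 5126 CPM in the NEFM-high sides.

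Along the NEFM count itself, gated cells were split into 0 to 2, 3 to 9, 10 to 19, 20 to 49 and 50 or more UMIs. These levels are a description, since deeper cells also hold more NEFM UMIs and the classes share a library. INA climbed through every class of every part, for example 298, 721, 1258, 1404 and 1886 CPM in mouse replicate 1. GAP43 did as well, at 10.1, 278, 437, 819 and 1166 CPM in human replicate 1. SOX2 was at 249 CPM in the lowest and 8.32 CPM in the highest class of human replicate 1 and at 103 and 9.05 CPM in mouse replicate 2. PRPH did not keep climbing in human cells: it was highest at 10 to 19 UMIs, at 64.5 CPM in human replicate 1 and 223 CPM in human replicate 2, and stood at 18.3 and 147 CPM in the top class, whereas in mouse the top class held the most, 168 and 472 CPM. LHX3 in mouse replicate 2 peaked at 10 to 19 UMIs (468 CPM) and was at 211 CPM in the top class.

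**Figure D4:**
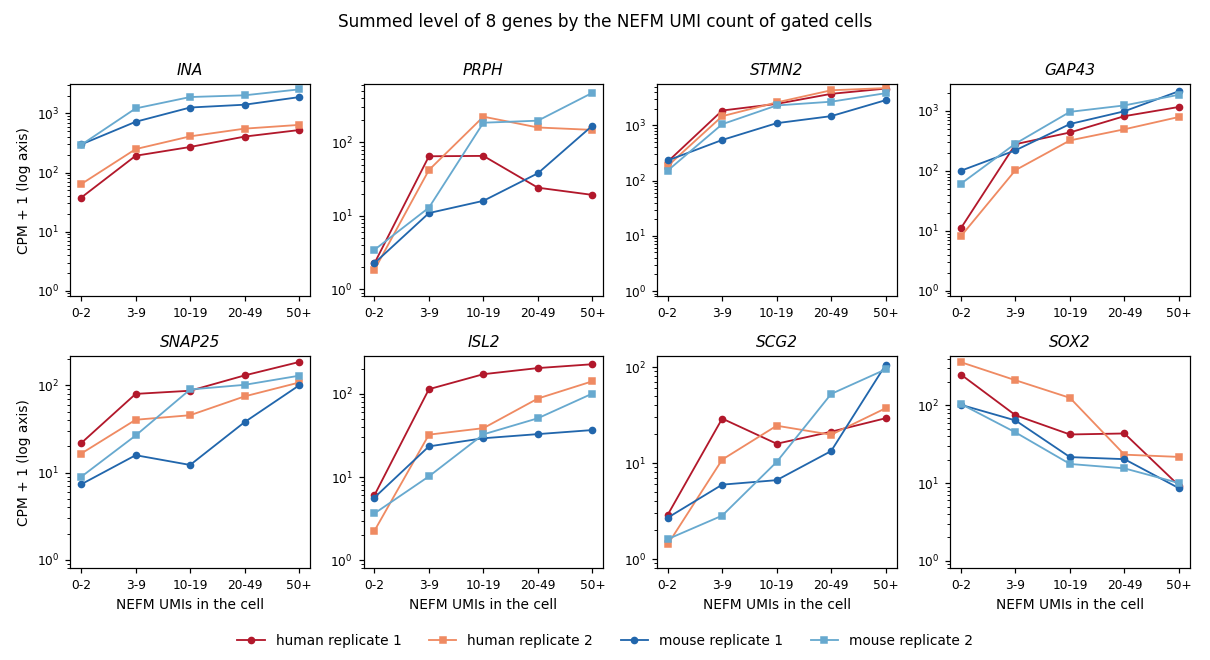
Level of 8 genes (CPM plus 1, log axis) in gated cells grouped by their NEFM UMI count, one line per library part (circles replicate 1, squares replicate 2, reds human, blues mouse). INA, STMN2 and GAP43 climb from class to class in each part and SOX2 ends at 20.8 CPM or less, while human PRPH peaks before the top class.

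The change from the NEFM-low to the NEFM-high side differed between the species for 337 symbols (3.29%), by edgeR's test of the difference itself: 130 with a larger human value (1.27%) and 207 with a larger mouse value (2.02%). Without the block none passed (547 at an unadjusted p under 0.05), and DESeq2 called 183. Symbols were matched by upper-cased name, which does not make them orthologues, and annotation differed between files. The count was 840 without mouse replicate 1 and 221 without mouse replicate 2.

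**Figure D5:**
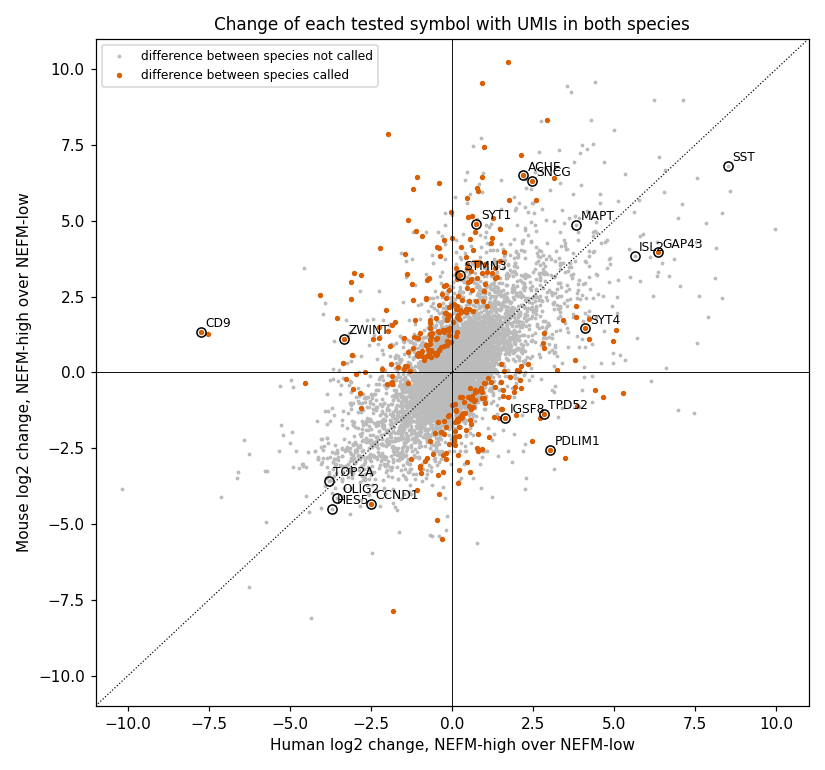
Human log2 change (horizontal) against mouse log2 change (vertical) from NEFM-low to NEFM-high cells, 1 point per symbol with UMIs in both species; orange points are symbols whose change differed between the species. The dotted line marks equal change. PDLIM1 and TPD52 lie below it at lower right, and SYT1 and STMN3 lie above it.

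Among synaptic genes, SYT1, the calcium sensor of vesicle fusion, was at 107 and 395 CPM in NEFM-low and 199 and 697 CPM in NEFM-high human cells, and in mouse cells at 0.848 and 2.66 CPM against 16.1 and 103 CPM. Human NEFM-low cells thus already held 107 and 395 CPM, and SYT1 was higher on the NEFM-high side within each human part. The NEFM-low value of human replicate 2 lay above the NEFM-high value of human replicate 1. In mouse SYT1 was nearly absent from NEFM-low cells. The changes were 0.75 in human and 4.91 in mouse, a difference of log2 -4.16 (SE 0.36, adjusted p = 3.71e-04). The human SYT1 call itself was lost without human replicate 2 (adjusted p = 0.22). STMN3, a stathmin, was at 135 and 102 CPM in NEFM-low and 147 and 149 CPM in NEFM-high human cells, and in mouse cells at 90.8 and 95.4 CPM against 584 and 1566 CPM. The difference was log2 -2.99 (SE 0.39, adjusted p = 0.00585). GAP43 went the other way, with a difference of log2 2.38 (SE 0.42, adjusted p = 0.016), which was 1.05 (adjusted p = 0.154) and not called in SOX2-free cells with ELAVL3, while its NEFM-low level was lower in both human parts than in either mouse part.

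The 5 genes with the largest positive difference by the rule were PDLIM1, TPD52, PKIB, GSTA4 and IGSF8. PDLIM1, an actin-linked adaptor protein, was at 70.7 and 122 CPM in NEFM-low and 809.8 and 837 CPM in NEFM-high human cells, and in mouse cells at 31.0 and 36.0 CPM against 13.4 and 4.13 CPM. It thus rose in human and fell in mouse, with a difference of log2 5.58 (SE 0.49, adjusted p = 3.71e-04). TPD52, a vesicle-trafficking protein, was at 16.4 and 9.25 CPM in NEFM-low and 120.0 and 75.4 CPM in NEFM-high human cells, and in mouse cells at 265 and 217 CPM against 141 and 79.3 CPM. It too was up in human and down in mouse, with a difference of log2 4.19 (SE 0.32, adjusted p = 3.71e-04). IGSF8, an adhesion protein, changed by log2 1.63 in human and -1.49 in mouse. GSTA4, a glutathione transferase, changed by log2 -2.48 in mouse and had an uncalled human change of 0.77. PKIB, an inhibitor of protein kinase A, had an uncalled human change of 0.18 and in mouse went from 10 UMIs to 1, a ratio of low to high of 13.1 (95% counting interval 1.86 to 568) that rests on those few molecules, and the difference was lost without mouse replicate 2 (adjusted p = 0.564).

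CD9, GNG4, CD200 and ZWINT were 4 of the 5 genes with the largest negative difference. ZWINT, a kinetochore protein, was at 12.6 and 63.9 CPM in NEFM-low and 2.75 and 5.08 CPM in NEFM-high human cells, and in mouse cells at 115 and 160.2 CPM against 249.8 and 425 CPM. Its log2 change was -3.34 in human and 1.10 in mouse. CD200, an immunoglobulin-family membrane protein, had an uncalled human change of 0.45 and in mouse went from 3 UMIs to 318, a ratio of 81.0 (95% counting interval 27.5 to 395), and without mouse replicate 2 its difference had an adjusted p of 0.157. GNG4, a G protein gamma subunit, had no UMI in mouse NEFM-low cells and 27 in NEFM-high cells, at least 6.88-fold higher against 3 counts over the group, with an adjusted p for the difference of 0.576 without mouse replicate 2. CD9, a tetraspanin, had 28 UMIs in human NEFM-low and 0 in human NEFM-high cells, at least 17.1-fold lower, and in mouse changed by log2 1.35 (SE 0.32, adjusted p = 0.0102). Without mouse replicate 1 the mouse CD9 change was 0.70 (adjusted p = 0.0535).

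Other cell types in the gate were checked with marker lists. Markers of epithelium and endoderm summed to 728 CPM in NEFM-low and 66.7 CPM in NEFM-high cells of human replicate 2 and to 15.1 and 74.3 CPM in human replicate 1, and 5 of 7 tested were called lower in human NEFM-high cells, or 0 of 8 (0 at an unadjusted p under 0.05) without human replicate 2, where 2 of 8 were called higher, and 8 of 10 without human replicate 1. In mouse 7 of 7 were lower, or 0 of 8 (1 at an unadjusted p under 0.05) without mouse replicate 2. KRT8, a keratin of simple epithelia, went from 3.79 and 184 CPM to 46.8 and 54.4 CPM in human, up in replicate 1 and down in replicate 2. A KRT8 UMI was found in 2.61%, 16.9%, 1.18% and 6.54% of NEFM-low and 23.9%, 31.1%, 1.05% and 2.15% of NEFM-high cells in the 4 parts, and in 26.6%, 29.5%, 1.60% and 10.9% of the SOX2-positive cells outside the gate. The part of these markers in the other changes was not tested beyond leaving cells out. With cells of at least 10 UMIs of KRT8 or at least 5 of COL1A2 left out, 2390 human and 3830 mouse symbols were called. PHOX2A, a factor of branchial and visceral motor neurons, was nearly absent from human sums but high in mouse replicate 1, at 45.8 and 311 CPM on the NEFM-low and NEFM-high sides. The markers of branchiovisceral and sensory neurons summed to 106 and 681 CPM there and to 25.1 and 212 CPM in mouse replicate 2. Of 7 tested, 5 were higher and 1 lower in mouse, and 1 was higher in human. Of all symbols, 17.9% were higher and 16.9% lower in mouse, and 11% were higher and 10.2% lower in human. The 1 lower in mouse and the 1 higher in human are near these shares. Glial markers summed to at most 139 CPM, interneuron markers to at most 143 CPM, mesenchyme markers to at most 108 CPM, and blood and endothelium markers to at most 5.31 CPM.

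In an alternative chosen after the SOX2 values were seen, both sides were reduced to cells with no SOX2 UMI and at least 1 UMI of ELAVL3, an RNA-binding protein of all neurons. This left 38, 16, 69 and 78 NEFM-low cells and 216, 266, 80 and 303 NEFM-high cells in the 4 parts, and 932 human (5.2% of those tested higher and 4.96% lower) and 2233 mouse symbols (14.4% and 9.94%) were called. Axonal and synaptic genes were still among them: 11 of 19 microtubule genes, 10 of 19 growth cone genes and 11 of 28 synaptic genes were higher in human, and 17, 14 and 23 in mouse. Other human counts were 6 of 15 transport genes, 6 of 20 transcription factors, 2 of 9 cholinergic genes, 1 of 16 channels and 5 of 10 receptors. The channel count is near the share of all symbols. Dividing-cell genes were lower for 18 of 27 tested in human and 26 of 27 in mouse, and progenitor genes for 12 of 22 and 15 of 22, so the reduced sides still differed in these genes. In this fit edgeR estimated an infinite prior degree of freedom, that is 1 spread trend for all genes, and its p-values take no account of genes that vary more than the trend. ISL2, GAP43, INA, MAPT, DCX, STMN2, SNAP25, RET and SST were among the genes called higher in both species in these cells. Of 102 human calls among the genes examined by name, 84 held, 13 were lost and 2 had the opposite sign and were not called. In mouse 102 of 107 held and 4 were lost. Human calls that were lost included ACHE (log2 0.67), LHX4 (0.29), SYT1 (0.29), DCLK1 (0.35), PTBP1 (-0.70) and EBF2 (-1.19). The mouse call of VIM (-0.25) was lost as well.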

How the data were processed

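Droplet-based 3' single-cell libraries of human and mouse motor neuron differentiation gave 4 library parts from 3 samples. Deposited values were raw counts of UMIs for each gene in each cell, and per the submitters' processing notes Cell Ranger 3.1.0 and the builds hg38 and mm10 were used. Annotation, and how empty droplets were removed, are not given in the sources used here. Files held 32739, 56832, 27999 and 54087 gene entries, so that replicates of a species were counted on unlike annotations. Gene positions are those of RefSeq for hg38 and of GENCODE for mm10.

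Cells had at least 1000 UMIs, at least 500 genes and at most 10% mitochondrial UMIs. Scrublet in scanpy 1.11.5 called 10, 24, 5 and 32 doublets, which were kept and left out as an alternative. Counts were summed per library part and side, giving 8 sums, and tested with edgeR 4.0.16 (R 4.3.3): TMM scaling, filterByExpr, quasi-likelihood test, a side effect per species and the library part as a block, since both sides of a part came from the same library. Residual degrees of freedom were 2 and the prior 8.51. Benjamini-Hochberg adjustment ran over 10255 symbols with a threshold of 0.05. On simulated counts of 10369 genes, the human test recovered 62.5% of changes of log2 1 and 96.9% of log2 2, with 13 false calls. The mouse test recovered 61.5% and 92.8%, with 6 false calls. These counts held no difference between the species, so recovery of a difference was not tested. Whether the shares hold for genes with a larger spread between library parts was not tested.

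Genes were named as list members, or by the 10 largest changes per species and direction (5 per direction for the difference). Such genes were called, had the same sign in both parts and had at least 50 CPM on the higher side of both. For the difference, the 50 CPM had to be reached in both parts of either species, not of each. RESP18, which the human parts lack, was named by the mouse rule. Members, gate and lists were chosen with earlier results of these data known. Alternatives were the fit without the block, DESeq2 1.42.0, its size factors, no filter, each part left out, cells matched for depth, other gates, doublets left out, cells thinned to 5000 UMIs and each species alone. Added after seeing the data were SOX2-free cells with ELAVL3, and leaving out KRT8 or COL1A2 cells. XIST and Y-linked genes were not named, and a few named-rule or list genes are not reported here.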

Additional observations from a re-analysis of the deposited data

Results flagged for a closer look

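The change with NEFM differed between the species, by edgeR's test of the difference, for 24 of the genes examined by name. Values are the human minus the mouse log2 change, adjusted over all symbols, and each species has 2 library parts.

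Larger human values were found for PDLIM1 (5.58), TPD52 (4.19), PKIB (3.83), GSTA4 (3.25), IGSF8 (3.12), SYT4 (2.66), GAP43 (2.38), FOXP1 (1.90), RBFOX3 (1.85), CCND1 (1.81), NEUROD1 (1.79), NES (1.63) and PBX3 (1.52). FOXP1, a factor of limb-level motor neurons, rose by log2 1.99 in human (adjusted p = 0.0016) and had a mouse change of 0.088 (adjusted p = 0.849). CCND1, a cyclin, fell in both species, by 2.52 in human and 4.33 in mouse. NES, the progenitor filament nestin, fell by 1.81 in mouse and had a human change of -0.18 (adjusted p = 0.515). SYT4, a synaptotagmin, and RBFOX3, the antigen of the neuronal marker NeuN, rose in both species, but both mouse calls were lost without mouse replicate 2 (adjusted p = 0.185 and 0.174), and that of RBFOX3 also in SOX2-free cells with ELAVL3 (0.371). Without mouse replicate 2 the differences of CCND1 (adjusted p = 0.0795) and NES (0.0688) did not pass, and without human replicate 2 those of PBX3 (1.00, adjusted p = 0.325) and RBFOX3 (0.144) did not. PKIB was lost without mouse replicate 2 (0.564).

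Larger mouse values were found for DCLK1 (-2.03), NGFR (-2.20), CHGB (-2.22), STMN3 (-2.99), SNCG (-3.87), SYT1 (-4.16), ACHE (-4.31), ZWINT (-4.44), CD200 (-5.29), GNG4 (-5.30) and CD9 (-9.09). NGFR, the low-affinity neurotrophin receptor, was at 119.9 and 108 CPM in NEFM-low and 127 and 120.2 CPM in NEFM-high human cells, and in mouse cells at 34.8 and 12.3 CPM against 111 and 103 CPM. NGFR did not pass in human and rose in mouse. ACHE, acetylcholinesterase, rose in both species but held 1 UMI in mouse NEFM-low and 180 in mouse NEFM-high cells, a ratio of 138 (95% counting interval 24.4 to 5462). For CD9 and GNG4, where 1 group held no UMI, the fitted value depends on the prior count and is no fold. Without mouse replicate 2 the differences of ACHE (-2.53, adjusted p = 0.294), DCLK1 (0.163), CD200 (0.157) and GNG4 (0.576) did not pass. ACHE was also lost without human replicate 1 (0.0541), and DCLK1 without human replicate 2 (0.0737). In SOX2-free cells with ELAVL3 the differences of SYT4, GAP43, RBFOX3, PBX3, PKIB, CHGB, GNG4, CD9 and ZWINT did not pass (adjusted p from 0.102 to 1).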

How the results depend on the processing

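Counts of called symbols moved by over 1.5 times under these settings, against 2176 human calls, 3572 mouse calls and 337 differences. Without the replicate block they were 86, 344 and 0 (547 at an unadjusted p under 0.05). DESeq2's Wald test gave 1343, 2103 and 183, thinning to 5000 UMIs gave 2266 in mouse, and SOX2-free cells with ELAVL3 gave 932 in human and 2233 in mouse. For the difference, no filter gave 893, the gate on the NEFM rate 540 and leaving out KRT8 or COL1A2 cells 529. Leaving out 1 library part gave 802 to 2928 for human calls, 1004 to 3827 for mouse calls and 221 to 840 for the difference, the lowest without human replicate 2, mouse replicate 2 and mouse replicate 2. Each symbol called in both the reported fit and another of these settings had the same sign. Among the genes named, human CHAT was -0.97 and human ELAVL3 -0.034 in the SOX2-free cells, opposite to the reported sign and not called there. For ELAVL3 this setting is no test, since the cells of both sides were chosen to hold a UMI of it. Of the 24 named genes whose difference between species was called, 24 lost the call without the block, 9 in SOX2-free cells, 8 with doublets left out, 7 under DESeq2, 6 after thinning and 5 with a motor neuron gene sum of at least 5 UMIs, and none changed sign. The cause of these moves was not tested. Dispersion was estimated from 2 residual degrees of freedom, and symbols with few UMIs, such as RET, SLC5A7 and CHAT in NEFM-low cells, have folds limited by counting.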
